A study of Mus musculus with 12 samples.

Results

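The developmental homeodomain genes outside the Hox clusters were examined for binding of SOX2, a transcription factor that maintains pluripotency, in mouse embryonic stem cells. Members were the protein-coding genes on autosomes whose symbol begins with Lhx, Nkx, Pax, Irx, Dlx or Pou followed by a number, or with the stem of the numbered Six-family genes (the sine oculis homologues, such as Six2), leaving out Lhx2, Pax6, Six3, Pou5f1 and Pou3f1. This rule found 59 of 20665 autosomal protein-coding genes, with 14 Nkx, 13 Pou, 8 Pax, 7 Lhx, 6 Irx, 6 Dlx and 5 Six-family genes. It uses gene names alone and no measured value. SOX2 was profiled by ChIP-seq (chromatin immunoprecipitation followed by sequencing) in the E14 line, grown in 10% serum with leukemia inhibitory factor, the GSK3 inhibitor CHIR99021 (3 μM) and the MEK inhibitor PD184352 (0.8 μM). The 12 libraries formed 4 groups of 3: asynchronous cells gave SOX2 ChIP and input DNA libraries, and so did mitotic cells, held overnight in nocodazole, which blocks microtubule assembly, and then sorted for the mitotic histone mark H3S10p. No allele or transgene is named for any group. Each condition has 1 list of regions called on its 3 replicates together, 10351 asynchronous and 84 mitotic regions, so the counts below have no replicate error and the read depth is unknown.

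Homeodomain proteins bind DNA through a helix-turn-helix domain and set cell identity along the body axes and in organ primordia. The LIM-homeodomain (Lhx) and POU (Pou) factors act mainly in neuron and pituitary subtypes, Nkx factors in the ventral neural tube and in gut, heart and lung, Pax factors in neural crest, kidney, eye and lymphocytes, Irx and Dlx factors in patterning of neural and skeletal primordia, and Six-family factors in sensory placodes, kidney and muscle. POU factors can pair with SOX proteins on composite DNA sites, and in embryonic stem cells many such developmental genes are held silent by Polycomb. The names do not all stand for a homeodomain: Pou2af1 is a coactivator of octamer-binding factors, Pax1 and Pax9 have a paired domain without a homeodomain, and Pax2, Pax5 and Pax8 keep a partial one. These genes are counted as members by name.

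Of the 59 genes, 29 (49.2%, exact 95% interval 35.9 to 62.5%) had the midpoint of an asynchronous SOX2 region within 50 kb of the gene span, against 47.2% of all autosomal protein-coding genes. The members' share lay close to this background and is not a result about these genes. Members were short, with a median length of 6.33 kb against 17.5 kb for all genes, and the share of all genes with a region ran from 23.2% in the shortest of 10 equal classes of gene length to 73.1% in the longest. Other genes in the members' own length classes had a region in 44.9% of cases on average, which would be 26.5 of 59 genes. Of the members with a region, 14 had 1 region, 11 had 2 and 4 had 3 or more (6.78% of members, against 7.75% of all genes). The 50 pairs of a member and a region came from 46 distinct regions, since neighbouring members shared 4 of them.

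Closer to the genes the shares stood further apart. Within 10 kb, 23 members (39.0%, exact 95% interval 26.5 to 52.6%) had a region, against 24.7% of all autosomal protein-coding genes and 20.8% of genes of like length. The Hox, forkhead, Sox and other homeobox lists described further on also lay above genes of like length at this distance. Within 5 kb it was 19 members (32.2%), against 20.9% of all genes and 16.7% of genes of like length. No test of these differences was run, and the intervals cover counting error alone and treat neighbouring members as independent, although Dlx3 and Dlx4 were within 10 kb of the same region. Among the 29 members with a region within 50 kb, the nearest lay beyond 10 kb for 6: Nkx2-1 (11.4 kb), Pou3f3 (13.4 kb), Six4 (13.5 kb), Six2 (16.3 kb), Irx6 (32.6 kb) and Nkx6-1 (48.7 kb). On the other side of the 50 kb limit were Nkx2-4 at 50.03 kb, Lhx8 at 51.2 kb and Irx4 at 53.2 kb. The median distance to the nearest region was 50.03 kb for members and 56.8 kb for all genes. For the length classes of the members, the median of the class medians was 70.2 kb.

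**Figure D1:**
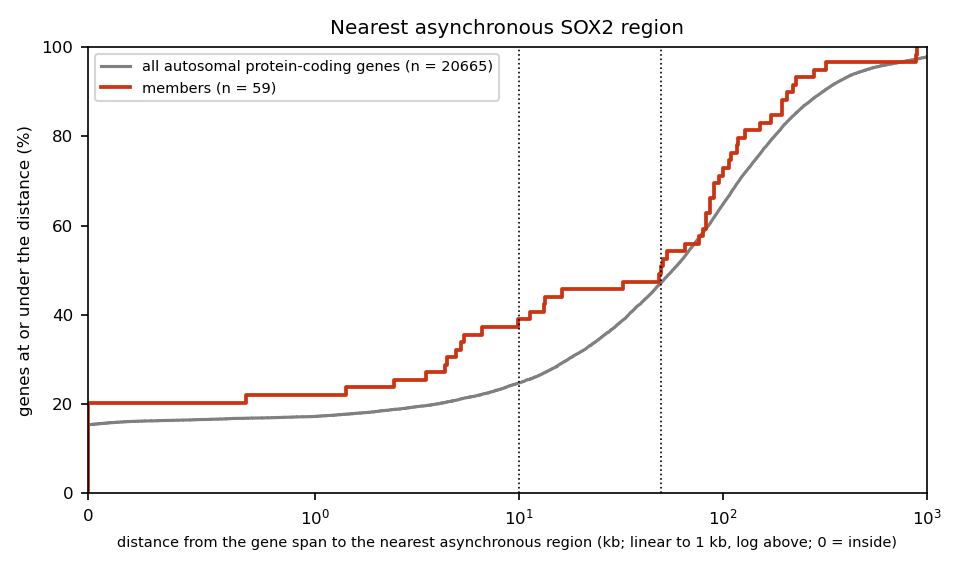
Percentage of genes (y) whose nearest asynchronous region lies at or under a distance in kb from the gene span (x, linear to 1 kb and logarithmic above it), for the 59 members (red) and all 20665 autosomal protein-coding genes (grey), with dotted lines at 10 and 50 kb. The member curve stands above the grey curve at 10 kb (39.0% and 24.7%) and close to it at 50 kb (49.2% and 47.2%).

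By family, the share with a region within 50 kb was 4 of 6 Dlx genes, 3 of 5 Six-family, 8 of 14 Nkx, 4 of 8 Pax, 3 of 7 Lhx, 5 of 13 Pou and 2 of 6 Irx. Genes of like length gave 41.0% for Dlx (against 66.7% observed), 43.5% for Six-family genes (60%), 40.5% for Nkx (57.1%), 54.3% for Pax (50%), 45.8% for Lhx (42.9%), 47.4% for Pou (38.5%) and 40.9% for Irx (33.3%). Every one of these length-matched values lay inside the exact 95% interval of its family, the narrowest of which ran from 28.9 to 82.3% (Nkx), so no order of the families can be read from the counts. At 10 kb, Dlx had 4 of 6 genes, Pax 4 of 8, Nkx and Lhx 42.9% each, Pou 4 of 13, Six-family 1 of 5 and Irx 1 of 6. For Nkx (17.7%) and Dlx (22.3%) the lower interval limits were above the 15.3% and 15.2% of genes of like length at that distance. This was so for no other family. The 4 Dlx genes are 2 neighbouring pairs, whose genes the intervals treat as independent. With 7 families compared and no test run, these limits do not set Nkx or Dlx apart.

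**Figure D2:**
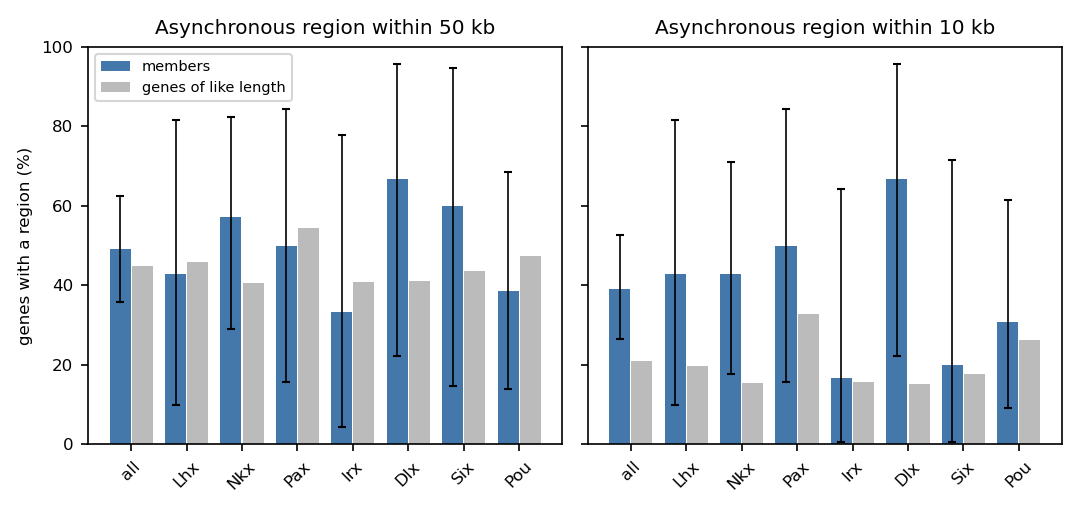
Percentage of genes with an asynchronous region midpoint within 50 kb (left) and 10 kb (right) of the gene span, for all 59 members and each family (blue, with exact 95% intervals for counting error) and for other genes of the same length classes (grey). Blue and grey bars for all members differ by little at 50 kb (49.2% and 44.9%) and by more at 10 kb (39.0% and 20.8%), and the intervals of single families are wide.

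Among LIM-homeodomain genes, Lhx6, which specifies interneurons of the ventral forebrain, had 2 regions. The region inside the gene, at chr2:36089245-36089561 (317 bp), lay 14.7 kb downstream of the nearest annotated start, and the other, at chr2:36079295-36079569 (275 bp), lay 2.52 kb beyond the gene and inside its neighbour Morn5. Lhx4, a factor of the pituitary and motor neurons, had a region inside the gene at chr1:155717951-155718133. The width of this region, 183 bp, is the smallest in the asynchronous list and is shared by other regions. Lhx3, the paralogue of Lhx4, had a region of 229 bp 4.92 kb outside the gene. Lhx8 (51.2 kb to the nearest region), Lhx1 (172 kb), Lhx9 (221 kb) and Lhx5 (280 kb) had none within 50 kb. The Lhx genes with a region were thus the paralogous pair Lhx3 and Lhx4 and Lhx6, with at most 2 regions each.

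The Nkx family held the widest region of any member. At Nkx2-2, a factor of the ventral neural tube and endocrine pancreas, a region of 644 bp (chr2:147189436-147190079) was wider than 97.8% of the asynchronous list. It lay inside the annotated span, also over the lncRNA gene Nkx2-2os, and its midpoint was 3.36 kb upstream of the start listed for Nkx2-2. Nkx6-2, expressed in neural progenitors and oligodendrocytes, had a region of 294 bp at chr7:139579560-139579853, inside the gene near its far end, 3.09 kb downstream of the start. This stretch is also inside the span of Inpp5a, so it belongs to both genes by position. Nkx2-3, which acts in spleen and gut, had a region of 295 bp at chr19:43616441-43616735, 0.696 kb beyond the gene, which also overlaps the noncoding gene Gm34922.

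Nkx1-1, Nkx1-2 and Nkx6-3 had 2 regions each. Those of Nkx1-1 lay 1.43 kb beyond the gene, on the side away from its start, and 24.4 kb upstream of the start. Those of Nkx1-2, a gene of posterior neural progenitors, lay 6.59 and 17.0 kb upstream of the start, and for both the nearest protein-coding gene was Lhpp. Those of Nkx6-3, a stomach factor, lay 4.37 and 11.7 kb outside the gene, the second nearer to Gpat4. Nkx2-1, which specifies thyroid, lung and ventral forebrain, had 1 region of 326 bp 11.4 kb outside the gene at chr12:56520408-56520733, and Nkx6-1 had 1 of 195 bp at 48.7 kb.

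The remaining Nkx genes had no region within 50 kb. After Nkx2-4 came Nkx2-9 (90.8 kb), Nkx3-2 (129 kb) and the heart factor Nkx2-5 (196 kb). Nkx2-6, on chromosome 14, was the member farthest from any region, at 901 kb. The Nkx genes thus ranged from a wide region inside the gene to no region over most of a megabase.

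Among paired-box genes, Pax5, which commits cells to the B lineage, had 5 regions, the most of any member. Inside its 186 kb span lay 4 of them, within a stretch of 25.2 kb, from chr4:44533458-44533648 to chr4:44558414-44558630, at 152 to 177 kb from the annotated start. Their widths were 191, 339, 216 and 217 bp, and the region outside the gene, at 41.3 kb, was 213 bp wide. Pax5 is in the longest length class, where genes had 1.85 regions on average. Pax3, a factor of neural crest and muscle progenitors, had 3 regions, all inside its 95.9 kb span: chr1:78110461-78110755 (295 bp), chr1:78119911-78120282 (372 bp) and chr1:78168026-78168314 (289 bp). Genes in its length class had 1.04 regions on average.

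Pax8, of thyroid and kidney, had a region of 351 bp inside the gene at chr2:24443293-24443643 and another 27.7 kb upstream of its start. Pax9 had 1 of 185 bp, 5.38 kb outside the gene and inside Slc25a21. Pax1 (65.7 kb), Pax2 (86.8 kb), Pax7 (110 kb) and Pax4 (119 kb) had none within 50 kb. Pax3 and Pax7, which are close paralogues of like length (95.9 and 96.5 kb), thus stood at 3 regions and none.

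Iroquois genes lie in 2 clusters of 3. On chromosome 13, Irx2 had 3 regions, all beyond the end of the gene that is away from its start: chr13:72636482-72636794 (313 bp, 2.44 kb outside), chr13:72667799-72668034 (236 bp, 33.7 kb) and chr13:72675928-72676158 (231 bp, 41.8 kb). Irx4 (53.2 kb) and Irx1 (207 kb) in that cluster had none within 50 kb. On chromosome 8, Irx6 had 1 region of 278 bp at 32.6 kb, and Irx5 (90.8 kb) and Irx3 (107 kb) had none. No Iroquois gene had a region over its own span.

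The Dlx genes, which act in forebrain interneurons and in jaw and limb skeleton, lie in 3 neighbouring pairs, and the genes of a pair had the same regions. Dlx5 and Dlx6 shared 2: chr6:6878516-6878786 (271 bp), inside Dlx5 within 1 kb of an end, and chr6:6859637-6859987 (351 bp), 3.52 kb from Dlx6 and over the lncRNA gene Dlx6os1. Dlx3 and Dlx4 shared 1 of 190 bp between them, at chr11:95135122-95135311, 5.23 kb from Dlx4 and 9.92 kb from Dlx3. Dlx2 (83.0 kb) and Dlx1 (95.7 kb) had none within 50 kb. The count of 4 Dlx genes with a region thus comes from 3 regions at 2 loci.

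Among Six-family genes, Six4, of sensory placodes and muscle, had a region of 393 bp at chr12:73085880-73086272, 13.5 kb from the gene. Six2, which maintains nephron progenitors, had 3 regions, all between 16.3 and 37.6 kb from the gene on the side of Six3. They were at chr17:85624940-85625253 (314 bp, inside Six3), chr17:85645837-85646044 (208 bp) and chr17:85646307-85646639 (333 bp), the last 2 with 262 bp between them. All 3 were also within 50 kb of Six3, which is not a member. Six6 (100.1 kb) and Six5 (230 kb) had no region within 50 kb.

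Among POU genes, Pou2f1, the broadly expressed factor Oct1, had the region nearest to an annotated start of any member with a listed start: 411 bp at chr1:166003041-166003451, centred 0.612 kb upstream. A second region of 281 bp lay inside the gene at chr1:165966612-165966892. Pou1f1, the pituitary factor Pit1, had a region of 347 bp inside the gene at chr16:65529527-65529873, 6.39 kb downstream of a start. Pou2f3, a factor of tuft cells, had regions 4.46 and 49.0 kb outside the gene, the farther of them nearer to Oaf. Pou3f3, a neural factor, had 2 regions, 17.8 and 30.6 kb downstream of its start, both over the noncoding gene Gm46091.

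The other POU genes had no region within 50 kb: Pou4f2 (76.7 kb), Pou6f1 (80.0 kb), Pou2f2 (83.3 kb), Pou4f3 (86.4 kb), Pou3f2 (118 kb), Pou5f2 (153 kb), Pou2af1 (195 kb) and Pou4f1 (321 kb). All 3 Pou4 genes, which specify sensory neurons, were among them. Of the 30 members of all families without a region, 13 had one between 50 and 100 kb and 17 had none within 100 kb, so that 42 of 59 (71.2%) had a region within 100 kb, against 64.7% of all autosomal protein-coding genes.

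**Figure D3:**
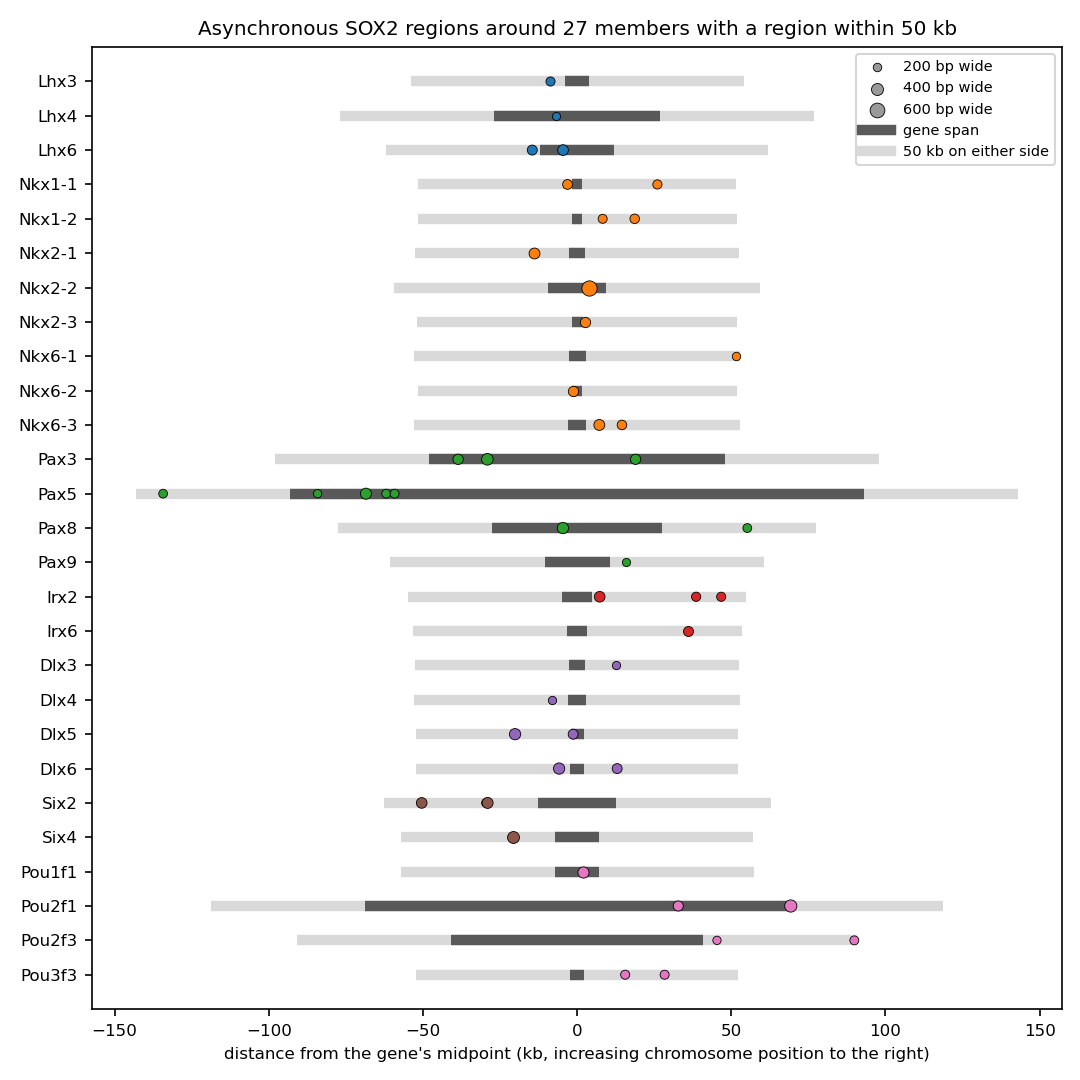
Map of 27 of the 29 members with an asynchronous region within 50 kb, each centred on its gene: dark bars are gene spans, pale bars the 50 kb on either side, and circles are regions, with area growing with width, on an axis of distance from the gene's midpoint in kb. Pax5 has 5 circles on one side of its midpoint, the circle of Nkx2-2 is the widest (644 bp), and Dlx5 with Dlx6 and Dlx3 with Dlx4 show the same regions from either gene.

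Of the 50 pairs of a member and a region, 15 (30%) had the region inside the gene, 4 (8%) within 1 kb of a gene end, 11 (22%) from 1 to 10 kb outside and 20 (40%) from 10 to 50 kb outside. Over all autosomal protein-coding genes the shares of 16601 such pairs were 27.9%, 5.26%, 13.3% and 53.5%. These shares depend on gene length. For genes over 10 kb long, 14 of 25 member pairs (56%) were inside the gene, against 35.6% over all such genes. For genes up to 10 kb long it was 1 of 25 (4%), against 3.08%. Of the inside pairs, Pax5 gave 4 and Pax3 gave 3. A start and strand were listed for 42 members. Of the 33 pairs of these genes, 25 had the region downstream of the nearest listed start and 8 upstream. The window holds 50 kb upstream of the gene but the gene itself plus 50 kb downstream, so the split is uneven by construction. A split over all genes is not given here, and Pax5 alone gave 5 of the downstream pairs. For 8 of the 46 regions another protein-coding gene was nearer than any member, as at Morn5, Slc25a21, Lhpp, Gpat4, Oaf and Six3. The union of the members' windows, 7.01 Mb, held 6.56 regions per Mb, and that of all autosomal protein-coding genes 5.12 per Mb. These densities were not matched for gene length and have no interval, and the difference was not tested. Single families ran from 4.08 per Mb (Pou, 8 regions) to 9.93 per Mb (Six-family, 5 regions).

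The median width of the regions near members was 267 bp (interquartile range 218 to 316 bp), against 287 bp for the 8022 regions within 50 kb of any autosomal protein-coding gene, and 17 of 46 (37.0%) were wider than the 289 bp median of the whole list, against 49.1%. Width grows with depth and is not a measure of binding strength. The widest were those of Nkx2-2 (644 bp), Pou2f1 (411 bp), Six4 (393 bp), Pax3 (372 bp) and, with the same width of 351 bp, Pax8 and Dlx6. Median widths by family were 314 bp for Six-family genes (5 regions), 271 bp for Dlx (3), 263 bp for Nkx (11), 257 bp for Irx (4), 252 bp for Lhx (4), 227 bp for Pou (8) and 217 bp for Pax (11).

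**Figure D4:**
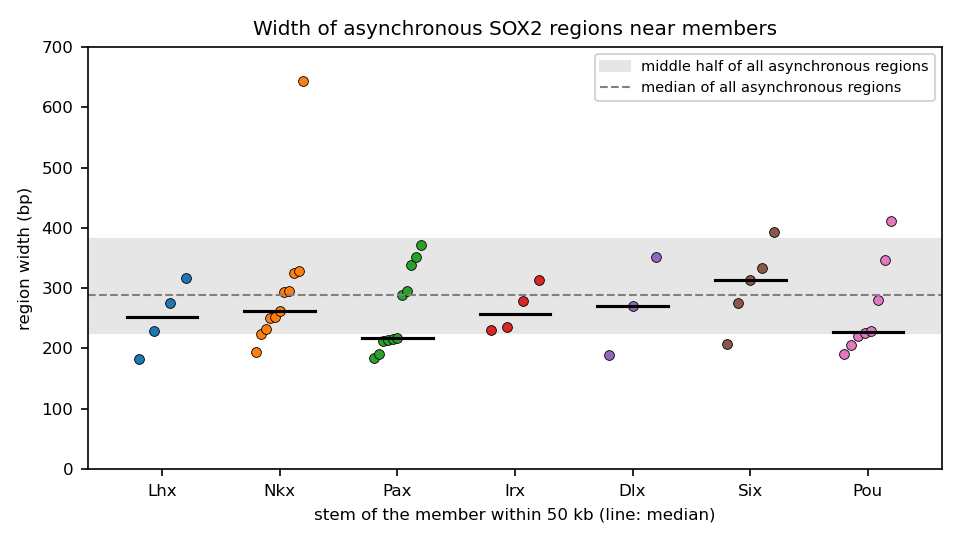
Width in bp (y) of the asynchronous regions within 50 kb of members of each family (x), as 1 point per region, with a black line at the family median; the grey band and dashed line give the interquartile range and median (289 bp) of all 10351 asynchronous regions. The Nkx2-2 region at 644 bp stands above the others, and the medians of all families but the Six-family genes lie under the dashed line.

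In mitotic cells no member had a region within 50 kb, 0 of 59, compatible with a share as high as 5.08% (3 counts of 59). Of all autosomal protein-coding genes 0.886% had a mitotic region within 50 kb, which corresponds to 0.522 of 59 genes, so a lower share in members was not detectable. None had one within 100 kb either (1.5% of all genes). The nearest mitotic regions were 691 kb from Nkx1-1, 705 kb from Pax8, 767 kb from Dlx3 and 788 kb from Dlx4. The median distance was 10576 kb over the 57 members on chromosomes with a mitotic region and 9355 kb over all such genes. That none of the 46 asynchronous regions near members overlapped a mitotic region follows from this absence within 100 kb and is no further result.

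Partner genes of these factors were counted beside them. They were the LIM-domain partners Ldb1, Ldb2, Lmo1 to Lmo4 and Isl1, the Six-family partners Eya1 to Eya4 and Dach1, the corepressors Tle1 to Tle4 and the homeodomain partners of the Pbx and Meis families. Of 23, 14 (60.9%) had an asynchronous region within 50 kb, close to the 60.5% of genes of like length, these genes being long (median 91.0 kb). Meis2, a cofactor of homeodomain proteins, had 5 regions, Eya1, a phosphatase that acts with Six-family factors, had 4, and Eya2, Eya4, Pbx3, Tle1 and Tle3 had 3 each. Ldb1, the scaffold of LIM-homeodomain proteins, had 2. Side by side, 29 of 39 Hox genes (74.4%, 41.3% for genes of like length), 23 of 41 forkhead genes (56.1%, 44.8%), 33 of 56 genes of other homeobox families (58.9%, 47.0%) and 11 of 18 Sox genes (61.1%, 44.8%) had a region within 50 kb. Hox genes lie in tight clusters, so that a region can count for several of them. Within 10 kb, a region was found for 13 of 39 Hox genes (33.3%, against 16.2% of genes of like length), 12 of 41 forkhead genes (29.3%, 22.03%), 21 of 56 genes of other homeobox families (37.5%, 23.4%), 8 of 18 Sox genes (44.4%, 21.6%) and 12 of 23 partner genes (52.2%, 42.5%). A share above that of genes of like length at 10 kb was thus seen in each of these 5 lists as well as in the members. No gene of these lists had a mitotic region within 50 kb.

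RefSeq promoter sequences (GRCm38.p6) were matched for 42 of the 59 members, as 51 windows from 250 bases before to 50 after an annotated start. None of the 51 overlapped an asynchronous region, against 1.56% of all 32851 windows. At so low a share, 51 windows, some overlapping each other, are too few for a lower share in members to be detectable. The full set of windows comes from 27025 genes and includes noncoding genes such as the lncRNA gene Pantr2. All members are protein-coding, so the full set is not a matched background for any share in this paragraph. The windows of members were rich in CpG, with a median of 17 CpG per window and 61.7% G or C, against 7 and 52.7% for all windows. The 6-letter cores of SOX sites, ACAAAG and ACAATG, were searched on both strands: 21.6% of member windows held at least 1, against 28.6% of all windows and 53.9% of the 512 windows that an asynchronous region overlapped. The octamer ATGCAAAT of POU factors was found in none of the member windows and in 1.74% of all. A lower share in members was not detectable here either. A match describes letters in a window and is no evidence of a site.

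The 250 bases before the start are shown for 4 members. Nkx2-2 and Pou2f1 are the genes with the widest region and with the region nearest to a start, and neither printed window holds a SOX core, although 2 windows at other starts of Pou2f1 do. The Pou1f1 window holds 3, the most of any member window, and that of Lhx6 holds 1 of each core within 27 bases of the start. Capitals mark the cores on either strand, so CTTTGT and CATTGT are the cores read on the other strand.
Nkx2-2 (chr2:147186403-147186652, minus strand): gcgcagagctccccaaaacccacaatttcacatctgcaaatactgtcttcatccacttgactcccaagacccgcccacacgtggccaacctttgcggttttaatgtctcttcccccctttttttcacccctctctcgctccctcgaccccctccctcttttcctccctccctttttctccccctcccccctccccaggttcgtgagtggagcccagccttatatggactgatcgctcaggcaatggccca
Pou2f1 (chr1:166002635-166002884, minus strand): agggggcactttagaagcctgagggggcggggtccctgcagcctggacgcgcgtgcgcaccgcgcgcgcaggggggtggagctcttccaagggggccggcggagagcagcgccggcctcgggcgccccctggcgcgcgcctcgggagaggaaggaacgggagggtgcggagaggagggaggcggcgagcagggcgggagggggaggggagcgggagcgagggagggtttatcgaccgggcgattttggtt
Pou1f1 (chr16:65520262-65520511, plus strand): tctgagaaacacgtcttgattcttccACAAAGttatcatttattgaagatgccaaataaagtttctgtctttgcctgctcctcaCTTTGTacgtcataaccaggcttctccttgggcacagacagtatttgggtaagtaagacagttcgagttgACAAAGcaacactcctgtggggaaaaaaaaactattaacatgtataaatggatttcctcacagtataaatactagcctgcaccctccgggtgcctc
Lhx6 (chr2:36104061-36104310, minus strand): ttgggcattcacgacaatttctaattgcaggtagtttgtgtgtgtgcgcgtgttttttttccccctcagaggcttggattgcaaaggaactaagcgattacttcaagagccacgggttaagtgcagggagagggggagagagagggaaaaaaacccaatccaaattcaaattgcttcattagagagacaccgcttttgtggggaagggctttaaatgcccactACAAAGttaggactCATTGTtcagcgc
The regions of these 4 genes lie outside the printed windows.

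Of the 46 regions near members, 1 fell on a promoter window of any gene: that of Pantr2, a lncRNA gene beside Pou3f3. The whole region of 229 bp at chr1:42713469-42713697, centred 13.4 kb outside Pou3f3, lay within the 250 bases before the Pantr2 start, which are shown with the bases of the region in capitals.
Pantr2 (chr1:42713455-42713704, minus strand): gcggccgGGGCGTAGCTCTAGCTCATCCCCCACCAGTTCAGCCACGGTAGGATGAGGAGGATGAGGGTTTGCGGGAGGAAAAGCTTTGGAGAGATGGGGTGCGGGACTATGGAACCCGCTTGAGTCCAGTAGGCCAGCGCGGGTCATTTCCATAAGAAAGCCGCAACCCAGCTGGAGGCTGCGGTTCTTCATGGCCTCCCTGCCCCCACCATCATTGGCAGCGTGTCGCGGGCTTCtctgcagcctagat
Neither SOX core nor the octamer is among these letters on either strand.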

How the data were processed

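SOX2 ChIP-seq peaks from asynchronous and mitotic E14 cells were used as deposited. Per the submitters' processing notes, Bowtie2 2.2.1, MACS2 (version not given in the sources used here) and build mm10 were used. Per the deposited names, peaks were called per condition on 3 pooled replicates against input, with q-value tags read as 0.01 (asynchronous) and 0.05 (mitotic), and blacklisted regions were removed. The deposited values are positions in bp, with no score or count; depth and replicate spread are unknown.

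Starts were converted to count from 1, and the 10532 asynchronous entries were merged to 10351 distinct regions. Genes came from RefSeq (GRCm38.p6, the assembly of mm10) as spans. A region counted for a gene when its midpoint was within 50 kb of the span. Genes of like length were all other autosomal protein-coding genes in the same of 10 length classes, averaged over members. Intervals are Clopper-Pearson at 95% (scipy 1.17.1; Python 3.11.15, numpy 2.4.6, pandas 2.3.3) and cover counting error only. Counting was tested on simulated data. Members and lists were chosen with earlier results of these data known, so no test of the members was made.

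By rule, members were named (results of some are not reported here), with coordinates for members with 3 or more regions, with a region over or within 1 kb of the gene, and for the 5 widest regions. Other coordinates, partner genes, printed promoters and the 5 kb distance were chosen after values were seen. Alternatives were windows of 10 and 100 kb, overlap of 1 bp, wider regions, nearest gene, unmerged entries, 20 length classes and other backgrounds. Pou3f4, on the X chromosome, was not analysed here.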

Additional observations from a re-analysis of the deposited data

How the results depend on the processing

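The count of 29 members with an asynchronous region was 23 within 10 kb, 42 within 100 kb, 30 with an overlap of 1 bp (which adds Nkx2-4), 25 by nearest gene and 29 without Pou2af1. With the regions wider than the median it was 17, and distinct regions fell from 46 to 17; these fell by construction, as fewer regions entered. Within 10 kb there were 29 distinct regions. The share in genes of like length moved with the window, to 20.8% within 10 kb and 63.6% within 100 kb, and to 25.6% with the wider regions. With these wider regions the members stood at 17 of 59. With 20 length classes it was 44.9%, and 44.6% without homeobox genes in the background. The mitotic count was 0 under each of the 6 alternatives run. No paired analysis was possible because each condition has 1 list from pooled replicates, and for the same reason no replicate could be left out. The lists give no depth, and the mitotic list, of 84 regions, limits what can be said of members in mitosis.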
